A study of Homo sapiens with 10 samples.

Results

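Large enhancer clusters were examined as stretches of the genome where many peaks of H3K27ac, histone H3 acetylated at lysine 27, lie close together. The peaks were the 42067 windows of one common table of read counts. Autosomal windows were joined when the next one began within a fixed distance of about 12 kb of the end of the previous one (the widest gap inside a cluster was 12461 bases), and groups of 8 or more windows were kept. This gave 230 clusters with 2404 windows, 5.71% of the table, among 26314 stitched groups. Every member window was 400 bases from start to end. Of the 2404 member peaks, 2396 passed the filter on low counts and 8 did not.

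All libraries came from Rh30, a human cell line of alveolar rhabdomyosarcoma, a childhood muscle-lineage tumour, that carried PAX3-FOXO1-FKBP, the fusion transcription factor with an FKBP tag. The 4 groups were DMSO, the solvent control, and 500 nM dTAG47 for 2 h, 4 h and 24 h, each with 2 H3K27ac libraries, called A and B here. The labels name the same tagged line in all 4 groups. Every comparison with DMSO used the same DMSO libraries, for which the labels give no time. The sources used here do not say whether the cells were a clone or the libraries came from separate cultures. Thus p-values measure only the spread between these libraries, which may be technical. For a single peak this spread was estimated mostly from all peaks together. Columns of the table could be matched to groups but not to replicate numbers.

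H3K27ac marks active promoters and enhancers, and dense runs of such peaks are often treated as one unit, under names such as stitched or super-enhancer, because they tend to lie near genes that define a cell's identity. PAX3-FOXO1 joins the DNA-binding part of PAX3 to the activating part of FOXO1 and drives alveolar rhabdomyosarcoma by binding and activating enhancers. A ligand of the dTAG kind bridges the FKBP tag to an E3 ubiquitin ligase, so that the tagged protein is degraded. The amount of the fusion protein was not measured in these files.

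The clusters held 8 to 35 peaks, with a median of 9, and spanned 19.0 to 184 kb with a median of 48.8 kb. Within a cluster, neighbouring peaks were separated by a median of 5088 bases. Exactly 8 peaks, the smallest size kept, were found in 67 clusters, and 105 autosomal groups held 7 peaks and were left just outside. In edgeR's test of summed counts at 24 h, described below with its threshold of 0.05 on the adjusted p, 10 of the 67 groups with 8 peaks were called lower and 10 higher. Of the 105 with 7 peaks, 18 were called lower and 19 higher, where 5.55% and 4.0% of all stitched groups were called. Chromosome 1 carried 31 clusters, chromosome 17 carried 27, chromosome 9 carried 20 and chromosome 14 carried 18. A further 2 groups of this size, on the sex chromosomes, were left out by the rule.

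Libraries held 3540104 to 5001652 counts in peaks. A member peak held a median of 84 to 122 counts per library, against 48 to 69 for all peaks, and a cluster as a whole 937.5 to 1339.5. The members took 8.31% of all counts in both DMSO libraries and 8.44% to 8.58% in the 6 treated libraries. Signal is given in CPM, counts relative to all counts in peaks of the library, scaled between libraries by the trimmed mean of M values. Summed over its peaks, a cluster had a mean of 47.3 to 6014 CPM over the 8 libraries, with a median of 270 CPM. When the 26144 tested stitched groups were ranked by summed signal, 173 of the 230 clusters (75.2%) were among the 445 strongest and made up 38.9% of those. The 445 are the groups past the bend of the curve of signal against rank (slope 1 with both axes scaled to the same length). A sum grows with the number of peaks, and the clusters were chosen by that number, so a high rank is partly built in. The signal was unevenly shared within clusters: the strongest peak held 7.91% to 54.7% of it, with a median of 22.0%.

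The strongest cluster, chr12:58106998-58290552, was also the one with the most peaks, 35. Its summed signal was 5899 and 5872 CPM with DMSO, 6086 and 5987 CPM at 2 h, 6072 and 5986 CPM at 4 h, and 6109 and 6104 CPM at 24 h. All treated libraries lay slightly above both DMSO libraries, and the log2 change at 24 h was 0.053 ± 0.025 (SE; edgeR adjusted p = 0.189). It was 1 of 6 clusters with 117 peaks between positions 57462271 and 58832735 of chromosome 12, which together held 11.9% of the members' counts. These 6 had 17.3 to 172 CPM per peak with a median of 51.0, against a median of 27.5 in the other 224. The Rh30 line is known for extra copies of part of this chromosome arm. Copy number was not measured in these files, so copies of DNA and signal per copy cannot be told apart there. The log2 changes of these 6 sums ran from -0.053 to 0.0985 at 24 h.

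The first question was whether a cluster as a whole gained or lost signal after dTAG47. Counts were summed over the peaks of each stitched group and tested with edgeR's quasi-likelihood test, with Benjamini-Hochberg adjustment over all 26144 groups tested and a threshold of 0.05. At each time most clusters were not called, and those called were split between losses and gains. At 2 h, 12 clusters (5.22%) were lower and 18 (7.83%) higher, where 1.53% and 0.474% of all groups were called. At 4 h, 15 (6.52%) were lower and 23 (10.0%) higher, against 2.0% and 0.972%. At 24 h, 36 (15.7%) were lower and 40 (17.4%) higher, against 5.55% and 4.0%. Which direction held more calls at 24 h depended on the fit: lower calls were the more frequent with DESeq2's Wald test (6.52% and 6.09%), without 24 h A (13.0% and 11.7%) and when peaks were stitched at 10000 bases (18.8% and 16.2%). A cluster holds more counts than a single peak, so these shares compare groups of unequal depth.

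The changes of the sums were small. The log2 changes called at 24 h had a median of -0.25 among the lower clusters and 0.20 among the higher ones, and over all 230 clusters the range was -0.57 to 0.62. At 24 h, 1 cluster had a change of over 1.5-fold and 30 had one of over 1.2-fold, called or not. The standard deviation of the log2 change among clusters was 0.13, 0.14 and 0.18 at 2 h, 4 h and 24 h, against 0.28, 0.30 and 0.35 among all groups. Of the 26144 groups, 17380 were autosomal single peaks, with standard deviations of 0.307, 0.332 and 0.379. Groups of 3 to 7 peaks had 0.174, 0.194 and 0.257. Groups of 7 peaks had 0.128, 0.135 and 0.207, so the small spread was not particular to the clusters. The median log2 change over the clusters was 0.041, 0.038 and 0.011, against 0.0022, 0.0028 and 0.0019 over all groups.

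The calls at 2 h and 4 h rested on few libraries. At 2 h, 3 of the 12 lower and 4 of the 18 higher clusters were still called whichever of the 4 libraries was left out, at 4 h 4 of 15 and 9 of 23, and at 24 h 20 of 36 and 21 of 40. The shares called lower at 2 h were 2.17%, 2.17%, 3.04% and 2.17% when DMSO A, then DMSO B, then 2 h A, then 2 h B was left out, and the shares called higher were 3.04%, 4.35%, 6.52% and 2.61%. With offsets that follow abundance, 6.09% were lower and 6.09% higher at 2 h. At 4 h the shares called lower were 3.48%, 3.48%, 4.35% and 2.61% when DMSO A, then DMSO B, then 4 h A, then 4 h B was left out, and the shares called higher were 5.65%, 7.39%, 6.09% and 7.83%.

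**Figure D1:**
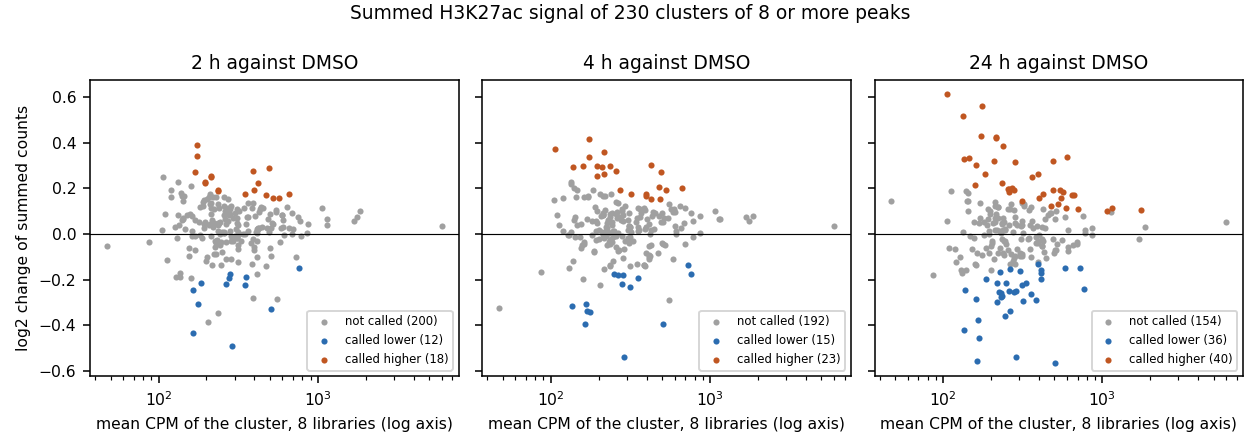
Each point is 1 of the 230 clusters, with its mean signal over 8 libraries (CPM, log axis) on the x axis and the log2 change of its summed counts against DMSO on the y axis, at 2 h, 4 h and 24 h; colours mark the calls of edgeR's test. Called clusters lie on both sides of 0 at each time, and at 24 h the changes run from -0.57 to 0.62.

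The cluster with the lowest log2 change at 24 h was chr9:133296688-133355671, with 13 peaks over 59.0 kb. It held 618.2 and 635.6 CPM with DMSO, 490.3 and 507.6 CPM at 2 h, 481.8 and 471.1 CPM at 4 h, and 415.4 and 432.8 CPM at 24 h. Every treated library lay below both DMSO libraries, and the 24 h libraries were the lowest. It fell by 0.33 ± 0.04, 0.40 ± 0.04 and 0.57 ± 0.04 (SE) on the log2 scale at the 3 times, with edgeR adjusted p of 1.61e-10, 1.8e-15 and 2.95e-30.

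A cluster of 10 peaks at chr6:44623502-44650409 had most of its loss in place by 2 h. Its signal was 363.6 and 382.9 CPM with DMSO, 279.8 and 253.9 CPM at 2 h, 244.7 and 268.1 CPM at 4 h, and 258.2 and 255.4 CPM at 24 h. The 6 treated libraries overlapped one another and all lay below DMSO. The log2 changes were -0.49 ± 0.05, -0.54 ± 0.05 and -0.54 ± 0.05 (SE), with edgeR adjusted p of 3.66e-16, 1.93e-19 and 5.38e-21. The difference between 24 h and 2 h was -0.05 ± 0.05 (edgeR adjusted p = 0.664).

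The 8-peak cluster chr1:8362348-8403757 held 206.9 and 205.7 CPM with DMSO, 151.7 and 153.4 CPM at 2 h, 153.6 and 160.4 CPM at 4 h, and 139.7 and 141.2 CPM at 24 h. Treated and DMSO libraries did not overlap, and the fall on the log2 scale was 0.44, 0.39 and 0.56 (SE 0.06 at each time; edgeR adjusted p 1.28e-08, 3.57e-07 and 3.96e-15). These 3 clusters on chromosomes 9, 6 and 1 were called lower at every time, without any 1 library and by DESeq2.

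In the other clusters among the 5 lowest at 24 h, the sum fell further between 2 h and 24 h. The 8-peak cluster chr14:75039684-75072628 held 193.9 and 195.6 CPM with DMSO, 190.1 and 181.3 CPM at 2 h, 156.3 and 151.9 CPM at 4 h, and 144.5 and 139.2 CPM at 24 h. Its log2 change was -0.071 ± 0.060 at 2 h (SE; edgeR adjusted p = 0.729), -0.34 ± 0.06 at 4 h and -0.46 ± 0.06 at 24 h (edgeR adjusted p = 3.37e-05 and 2.09e-10). The 2 h libraries lay just below DMSO and the later ones well below.

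The 9-peak cluster chr3:57154287-57204382 went from 155.5 and 161.3 CPM with DMSO to 144.6 and 137.8 CPM at 2 h, 129.5 and 125.1 CPM at 4 h, and 125.8 and 109.9 CPM at 24 h. This cluster already lay below both DMSO libraries in both 2 h libraries, and its log2 difference between 24 h and 2 h was -0.253. Its log2 change was -0.42 ± 0.07 at 24 h (SE; edgeR adjusted p = 1.27e-07), where the call stood without any 1 library. At 4 h it was -0.32 ± 0.07 (edgeR adjusted p = 0.000828), a call lost without DMSO B (adjusted p = 0.0528), without 4 h B (adjusted p = 0.0661) and with DESeq2 (adjusted p = 0.231).

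Among the clusters that gained signal, chr20:19569778-19607680 had the largest log2 change at 24 h. Its 8 peaks summed to 85.7 and 83.2 CPM with DMSO, 111 and 92.0 CPM at 2 h, 115 and 105 CPM at 4 h, and 137 and 121 CPM at 24 h. Each treated library lay above DMSO and the 24 h libraries were the highest. The log2 change was 0.25 ± 0.08 at 2 h (SE; edgeR adjusted p = 0.0899), 0.38 ± 0.08 at 4 h (adjusted p = 0.000944) and 0.62 ± 0.08 at 24 h (adjusted p = 6.76e-12). The call at 4 h was lost without 4 h A (adjusted p = 0.104) and with DESeq2 (adjusted p = 0.259), and the call at 24 h stood in each of these fits.

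The 9-peak cluster chr1:3433227-3470213 was called higher at every time, without any 1 library and by DESeq2. It held 133.7 and 138.7 CPM with DMSO, 176.3 and 180.2 CPM at 2 h, 188.3 and 175.7 CPM at 4 h, and 202.5 and 199.7 CPM at 24 h. Most of the gain was there at 2 h. The log2 changes were 0.39, 0.42 and 0.56 (SE 0.06 to 0.07; edgeR adjusted p 2.51e-06, 2.39e-07 and 3.97e-15).

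The remaining 3 of the 5 highest at 24 h were chr1:205196985-205229088, chr16:70748760-70781908 and chr2:241144212-241198475. The first of them went from 110.7 and 112.6 CPM with DMSO to 154.6 and 165.6 CPM at 24 h, a log2 change of 0.52 ± 0.07 (SE; edgeR adjusted p = 7.95e-11). The second went from 142.2 and 142.6 CPM to 189.7 and 194.5 CPM, a change of 0.43 ± 0.06 (adjusted p = 3.24e-09). The third went from 174 and 183.1 CPM to 242.6 and 236.5 CPM, a change of 0.43 ± 0.06 (adjusted p = 1.3e-10). In all 3 both 24 h libraries lay above both DMSO libraries, as the rule for naming clusters required. Of all 230 clusters, called or not, both 24 h libraries lay below both DMSO libraries in 80 and above them in 89. The calls of these 3 clusters stood without any 1 library and with DESeq2. When the test asked for more than a 1.2-fold change, 9 of the 10 clusters described were still called at 24 h and the one on chromosome 3 was not (edgeR glmTreat adjusted p = 0.0651). These 10 were chosen for the size of their change in the same counts, so this is no separate check of them. Of all 230 clusters, this test called 1.74% lower and 2.61% higher at 24 h.

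**Figure D2:**
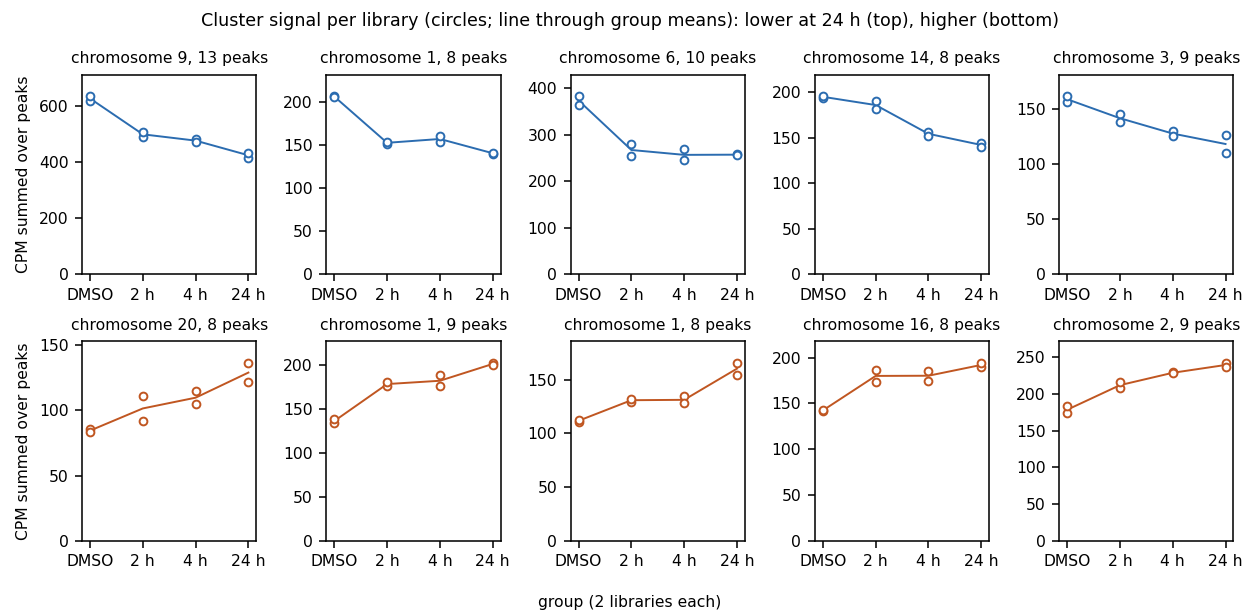
Circles give the summed signal (CPM, y axis from 0) of each of the 2 libraries in the 4 groups on the x axis, for the 5 lowest (top) and 5 highest (bottom) clusters called at 24 h, and lines join the group means. In each panel both 24 h libraries lie outside the DMSO range, which the rule for naming clusters required. On chromosome 9 they are at 415.4 and 432.8 CPM against 618.2 and 635.6 CPM with DMSO.

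A comparison of 24 h with 2 h, in which the DMSO libraries entered only through the scaling and the estimate of spread, called 37 clusters (16.1%) lower and 16 (6.96%) higher, where 3.14% and 2.2% of all groups were called by the same edgeR test. A fit of the 2 h and 24 h libraries alone called 14.8% lower and 6.09% higher. The range of the log2 difference was -0.38 to 0.39. Leaving out 2 h A, then 2 h B, then 24 h A, then 24 h B, the shares called lower were 12.2%, 8.26%, 6.09% and 7.39%, and the shares called higher were 3.91%, 2.61%, 2.61% and 3.04%. With offsets that follow abundance, 10.9% were lower and 10.9% higher, so the split between lower and higher clusters moved with the scaling. The lowest difference was that of chr14:75039684-75072628, with -0.38 ± 0.06 (SE; edgeR adjusted p = 3.12e-07).

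The second question concerned the single peaks. At 2 h, 36 member peaks (1.5%) were lower and 18 (0.751%) higher by edgeR's test of each peak, against 1.03% and 0.194% of all 41791 peaks tested. At 4 h, 52 (2.17%) were lower and 37 (1.54%) higher, against 1.67% and 0.567%. At 24 h, 154 (6.43%) were lower and 173 (7.22%) higher, against 4.88% and 3.46%. With DESeq2's Wald test the shares at 24 h were 1.33% lower and 1.08% higher. The median log2 change of member peaks was 0.041, 0.042 and 0.020, against 0.0047, 0.0037 and 0.0011 for all peaks.

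Member peaks were stronger than most, so peaks of like level were also set side by side. All tested peaks were split by mean CPM into 4 level classes of equal number. In the strongest class, 30.4 CPM and above, 7.62% of 932 members were lower and 7.51% higher at 24 h, against 4.81% and 1.93% of 9516 peaks outside the clusters. In the next class down the members' shares were 7.74% and 8.49%, against 5.82% and 4.55%. In the class below that, 7.5 to 13.7 CPM, lower calls were less frequent among the 395 members than outside, 2.78% against 5.59%, and higher calls were at 4.81% against 3.52%. In the weakest class none of 139 members was lower, against 3.03% outside, and 3.6% were higher, against 2.95%. Higher calls thus had the larger share among members in all 4 classes, though by little in the weakest, and lower calls in the 2 stronger ones. These are descriptions and the difference was not tested. At 24 h, 51 of the 154 lower and 47 of the 173 higher member peaks were called whichever library was left out. The shares lower were 3.5%, 3.74%, 4.08% and 4.0% when DMSO A, then DMSO B, then 24 h A, then 24 h B was left out, and the shares higher were 3.5%, 3.7%, 4.17% and 3.88%. Leaving out 1 library moved the shares at 2 h to between 0.333% (DMSO B) and 1.41% (2 h A) lower and between 0.0417% (2 h B) and 0.541% (2 h A) higher. At 4 h they moved to between 1.04% (DMSO A) and 1.71% (4 h A) lower and between 0.416% (DMSO A and DMSO B) and 0.582% (4 h A) higher.

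Called peaks were spread over many clusters. At 24 h, 146 of the 230 clusters held at least 1 called peak: 63 held lower peaks only, 63 higher peaks only and 20 both. These are 63.5% with any called peak and 8.7% with both directions, against 21.4% and 0.586% of all 8195 stitched groups of 2 or more tested peaks. The shares went up with the number of peaks that could be called: any called peak was found in 14.7% of autosomal pairs, 29.3% of groups of 3 to 7, 52.4% of groups of 7 (a subset of those) and 56.7% of groups of 8. Both directions were found in 0.0409%, 0.871%, 4.76% and 8.96% of them. Per tested peak, groups of 7 had 5.99% lower and 7.07% higher calls, and members 6.43% and 7.22%. The share with both was 3.04% without 24 h A and 3.48% when any one of the other 3 was left out. Of the 154 clusters whose sum was not called at 24 h, 74 held a called peak. No such share is given for other stitched groups with a sum not called, so this count has no background beside it. The most called peaks in 1 cluster was 7, in chr6:44623502-44650409. The log2 changes of single peaks within a cluster spanned a median of 0.61, 0.68 and 0.80 from the lowest to the highest at 2 h, 4 h and 24 h.

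Whether the peaks of a cluster changed by unequal amounts was tested directly, with an F test over the peaks of each stitched group (edgeR's diffSpliceDGE, adjusted over 8195 groups of 2 or more tested peaks). The test takes the peaks of a group as separate units, though all come from the same libraries. Changes of neighbouring peaks were correlated, as given below, and the p-values do not allow for that. Peaks were unequal in 10 clusters (4.35%) at 2 h, 22 (9.57%) at 4 h and 100 (43.5%) at 24 h, against 0.329%, 1.15% and 6.94% of all such groups. Of the 100, 53 had a sum that was not called. The share rose with the number of peaks per group at 24 h, from 2.9% of pairs and 10.9% of groups of 3 to 7 to 43.5% here. Groups of 7 and of 8 peaks had shares of 29.5% and 29.9%. A group with more peaks and more counts gives this test more to detect, and the part played by either was not tested.

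This count depended strongly on having both libraries of a group. It was 19.1%, 17.0%, 23.9% and 23.0% at 24 h when DMSO A, then DMSO B, then 24 h A, then 24 h B was left out. It was 2.61%, 3.04%, 4.35% and 2.17% at 4 h and 0.435%, 0.87%, 4.35% and 2.17% at 2 h without the corresponding libraries. The number called in every one of these fits was 24 of 100 clusters at 24 h, 3 of 22 at 4 h and 1 of 10 at 2 h. Among those 24, 7 sums were lower, 6 higher and 11 not called.

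**Figure D3:**
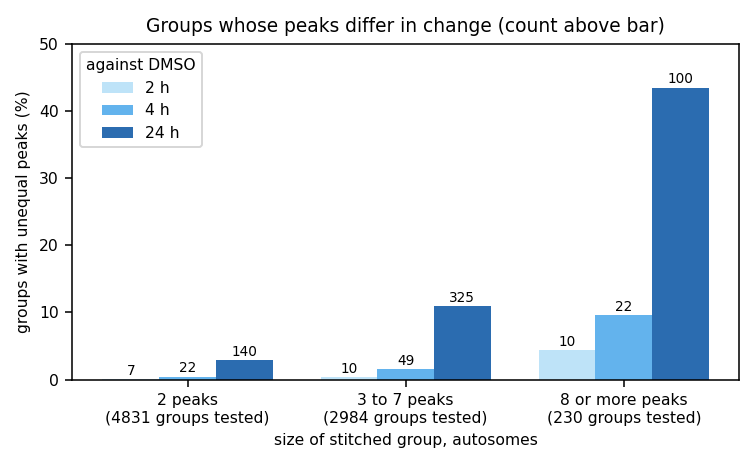
Bars give the percentage of autosomal stitched groups (y axis from 0) whose peaks changed by unequal amounts against DMSO at 2 h, 4 h and 24 h, by the number of peaks per group (x axis), with the number of such groups above each bar. At 24 h the share is 2.9% for pairs and 43.5% for groups of 8 or more.

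In the chr9:133296688-133355671 cluster the peaks were unequal at each time (edgeR adjusted p 7.5e-10, 1.5e-09 and 1.18e-12). The strongest peak lies at its right end, chr9:133355271-133355671, and held 133 and 135 CPM with DMSO, 72.4 and 78.5 CPM at 2 h, 76.9 and 63.8 CPM at 4 h, and 54.3 and 67.6 CPM at 24 h. It fell by 0.82, 0.93 and 1.14 on the log2 scale (SE at 24 h 0.09; edgeR adjusted p 1.16e-13, 4.13e-17 and 7.57e-25), and at 24 h it lay 0.58 below its cluster (adjusted p = 6.13e-07). The 3 peaks starting at 133347265, 133348832 and 133349820, next to it on the left, had log2 changes of -0.82, -1.01 and -0.74 at 24 h, each called whichever library was left out. The 7 peaks that were not called at 24 h, all in the left part of the cluster, had changes between -0.32 and -0.027. Of the other called peaks, the one at 133297541 had a change of -0.58 (edgeR adjusted p = 0.000187), lost with DESeq2 (adjusted p = 0.0675). The one at 133341253 had a change of -0.47 (edgeR adjusted p = 0.0091), lost without DMSO A (adjusted p = 0.146), 24 h A (adjusted p = 0.0611) or 24 h B (adjusted p = 0.064) and with DESeq2 (adjusted p = 0.379). The 6 called peaks together accounted for 85.5% of the net loss of 205 CPM. They were picked by their calls in these same counts, so a large share is partly built in.

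The chr1:31313566-31404094 cluster, with 15 peaks over 90.5 kb, lost signal at 2 peaks near its centre. The first, chr1:31351413-31351813, held 45.3 and 46.6 CPM with DMSO, 30.0 and 30.7 CPM at 2 h, 25.6 and 27.8 CPM at 4 h, and 19.0 and 20.9 CPM at 24 h. The second, chr1:31352372-31352772, held 64.3 and 61.7 CPM with DMSO, 33.8 and 40.8 CPM at 2 h, 36.3 and 40.5 CPM at 4 h, and 35.1 and 27.8 CPM at 24 h. Both fell, by 1.2 ± 0.13 and 0.99 ± 0.11 (SE) on the log2 scale at 24 h (edgeR adjusted p 4.7e-13 and 2.37e-12), with no overlap between treated and DMSO libraries.

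Of the other 13 peaks of this cluster, 2 were called lower at 24 h, with log2 changes of -0.87 at 31330957 and -0.54 at 31381447, and none was called higher. The 11 peaks that were not called together gained 10.6 CPM, while the 4 called peaks lost 89.4 CPM. The sum was 424.9 and 422.2 CPM with DMSO and 352.2 and 340.2 CPM at 24 h, a change of -0.29 ± 0.05 (SE; edgeR adjusted p = 9.03e-08). Peaks were unequal with edgeR adjusted p of 8.4e-06, 1.38e-09 and 5.2e-18 at the 3 times, and the call at 2 h was lost without DMSO A (adjusted p = 0.14).

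In chr17:80817755-80857177, 10 peaks over 39.4 kb, the loss was also held by a neighbouring pair of peaks. The peak chr17:80850846-80851246 held 61.8 and 61.1 CPM with DMSO, 38.8 and 42.7 CPM at 2 h, 43.4 and 38.2 CPM at 4 h, and 32.3 and 35.3 CPM at 24 h. The peak chr17:80852942-80853342 held 45.5 and 47.4 CPM, 29.2 and 33.5 CPM, 27.5 and 26.6 CPM, and 22.6 and 28.2 CPM in the same order. Their log2 changes at 24 h were -0.87 ± 0.11 and -0.88 ± 0.13 (SE; edgeR adjusted p 4.13e-10 and 3.41e-08), and the 8 other peaks were not called. This pair carried 98.5% of the net loss of 49.5 CPM. The 8 other peaks together moved by -0.719 CPM, a net of rises and falls, with log2 changes of up to 0.461. The pair was picked by its calls in these same counts, so a large share is partly built in. The sum changed by -0.22 ± 0.05 (edgeR adjusted p = 0.000257), a call lost with DESeq2 (adjusted p = 0.0765).

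The left part of chr14:75039684-75072628 fell while its right end did not. Its peaks at 75039684, 75049587 and 75050242 had log2 changes of -0.87 ± 0.17, -1.01 ± 0.15 and -1.15 ± 0.17 (SE) at 24 h, each called whichever library was left out, and the first of them was lost with DESeq2 (adjusted p = 0.0593). The peak starting at 75049587 went from 34.7 and 41.5 CPM with DMSO to 16.2 and 21.8 CPM at 24 h. Further right, the peak at 75053354 was not called (edgeR adjusted p = 0.119). The next one, at 75054096, was called lower (edgeR adjusted p = 0.041), a call lost whichever library was left out and with DESeq2 (adjusted p = 0.523). At the right end, the peaks starting at 75066251 and 75072228 had changes of 0.25 ± 0.14 and 0.28 ± 0.19, and neither was called (edgeR adjusted p 0.293 and 0.433).

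In chr14:105634489-105680616, the 3 rightmost of 8 peaks were called higher at 24 h and the other 5 were not called. The peak starting at 105678645 went from 51.8 and 62.2 CPM with DMSO to 84.0 and 88.9 CPM at 24 h, and the one at 105671707 from 19.6 and 16.5 CPM to 30.1 and 32.1 CPM. They rose by 0.60 ± 0.10 and 0.78 ± 0.16 (SE; edgeR adjusted p 4.37e-07 and 9.42e-05), with 24 h libraries above DMSO in both, and the second call was lost with DESeq2 (adjusted p = 0.059). The peak at the end, 105680216, had a change of 0.46 ± 0.09 (edgeR adjusted p = 3.99e-05), a call lost without DMSO A (adjusted p = 0.0996). The strongest peak of the cluster, at 105642790, had a log2 change of -0.21 ± 0.08 (adjusted p = 0.0591). The sum moved by 0.13 ± 0.04 (adjusted p = 0.0233), a call lost without DMSO A (adjusted p = 0.288), 24 h A (adjusted p = 0.147) or 24 h B (adjusted p = 0.0971) and with DESeq2 (adjusted p = 0.435).

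The chr17:76250257-76413661 cluster, with 32 peaks over 163 kb, had a nearly level sum over peaks that moved in opposite directions. It held 1668 and 1652 CPM with DMSO and 1633 and 1638 CPM at 24 h, a log2 change of -0.021 ± 0.032 (SE; edgeR adjusted p = 0.782), while the test of unequal peaks gave an adjusted p of 5.29e-19. The peak chr17:76312080-76312480 held 122 and 125 CPM with DMSO, 96.9 and 105 CPM at 2 h, 109 and 108 CPM at 4 h, and 80.2 and 73.9 CPM at 24 h. It fell by 0.68 ± 0.08 at 24 h (adjusted p = 1.6e-11).

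Near the right end of the same cluster, the peak chr17:76408900-76409300 held 27.9 and 24.4 CPM with DMSO, 32.7 and 31.2 CPM at 2 h, 36.3 and 34.0 CPM at 4 h, and 45.6 and 38.4 CPM at 24 h. It rose by 0.69 ± 0.13 (SE; edgeR adjusted p = 4.31e-05). At 24 h, 3 peaks of this cluster were lower with a joint change of -92.5 CPM, 3 were higher with 43.8 CPM, and the other 26 together moved by 19.0 CPM. Of these 6 calls, 3 were lost with 1 library fewer: 76274177 without DMSO B (edgeR adjusted p = 0.0708) or 24 h B (adjusted p = 0.059), 76275185 without DMSO B (adjusted p = 0.0516), and 76300791 without DMSO A (adjusted p = 0.218) or 24 h B (adjusted p = 0.13). The strongest of its peaks, at 76374674, went from 177 and 172 CPM with DMSO to 137 and 141 CPM, a fall of 0.33 ± 0.07 (adjusted p = 0.000343).

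**Figure D4:**
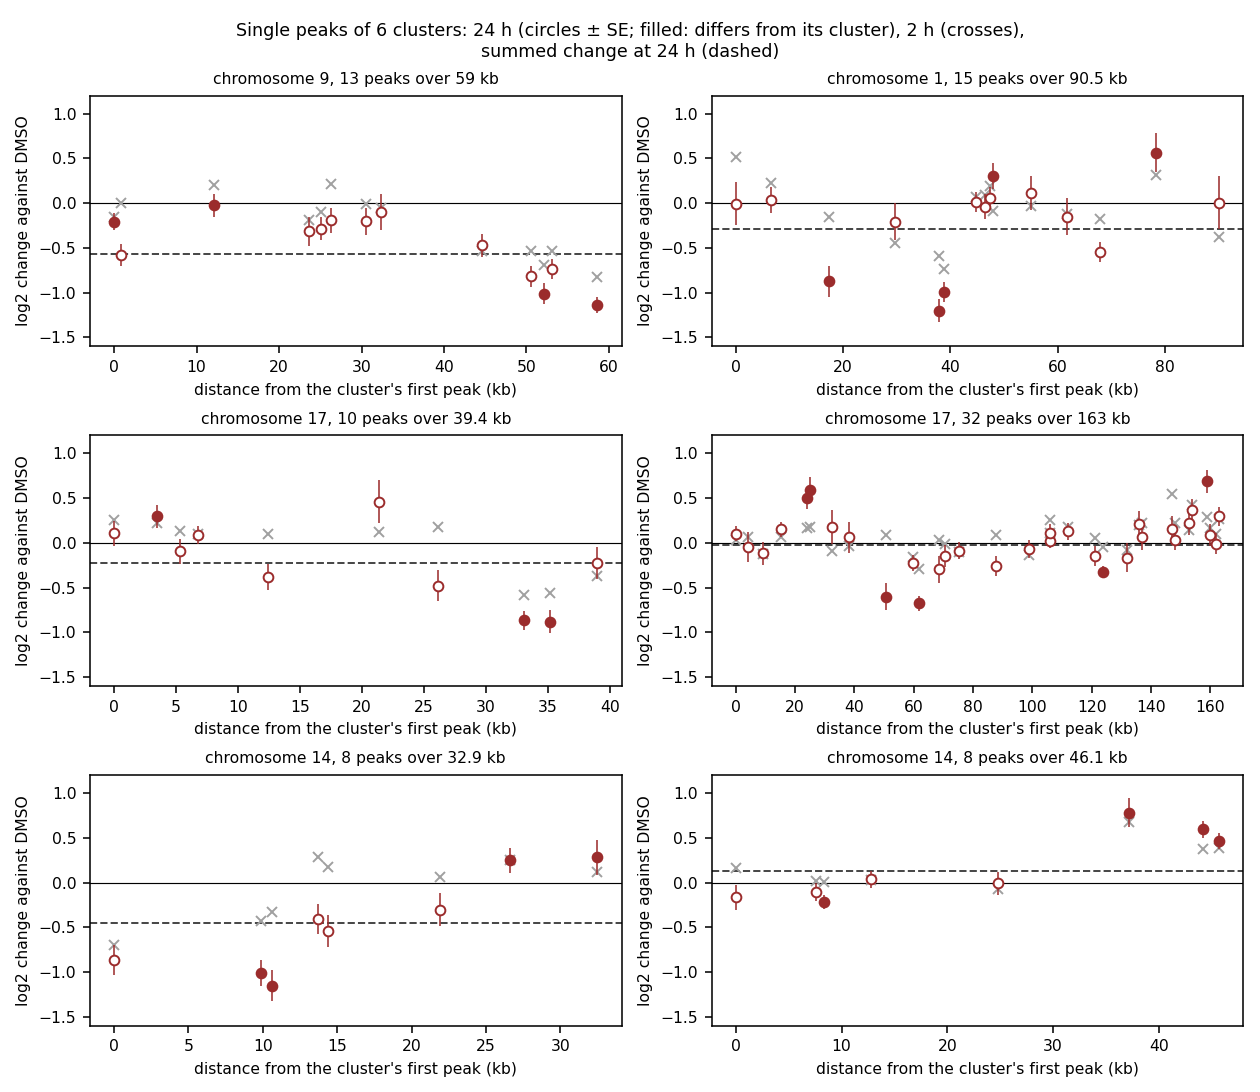
Log2 change against DMSO (y axis) of each tested peak, by its distance in kb from the first peak (x axis), in 6 clusters; circles are 24 h with bars of 1 standard error, filled where the peak differed from its cluster at 24 h, crosses are 2 h, and the dashed line is the change of the cluster's sum at 24 h. On chromosome 9 the right end reaches -1.14 while 7 peaks to the left lie between -0.32 and -0.027, and in the 32-peak cluster of chromosome 17 peaks lie on both sides of a sum at -0.021.

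Single peaks were also tested against their own cluster as a whole, the peak itself included. The test set 4 member peaks (0.167%) apart at 2 h, 14 (0.584%) at 4 h and 112 (4.67%) at 24 h, against 0.0294%, 0.117% and 1.43% of all peaks in stitched groups (edgeR's diffSpliceDGE, adjusted over 23845 peaks). The 112 lay in 69 clusters, 61 of them below and 51 above their cluster, and 44 had a log2 change of the opposite sign to that of the sum. The strongest peak of a cluster made up 10 of them and peaks at either end 20. Leaving out DMSO A, then DMSO B, then 24 h A, then 24 h B, the share at 24 h was 1.21%, 1.33%, 1.62% and 1.88%, and 12 peaks in 11 clusters were called in each of these fits. At 4 h the shares were 0.166%, 0.0832%, 0.125% and 0.0417%, and at 2 h 0.0%, 0.0%, 0.0832% and 0.0834%, without the corresponding libraries; no peak was called in every fit at 4 h or 2 h. The 0 peaks without DMSO A and without DMSO B at 2 h stood beside 149 and 161 at an unadjusted p under 0.05.

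The 12 peaks, named because they held and so chosen after their values were seen, included 9 that were lower and 3 that were higher at 24 h. The lowest log2 change was at chr6:44627664-44628064, which held 43.6 and 57.1 CPM with DMSO, 29.4 and 26 CPM at 2 h, 21.3 and 23.8 CPM at 4 h, and 16.8 and 14.6 CPM at 24 h. It fell by 1.67 ± 0.14 (SE; edgeR adjusted p = 1.13e-20), and lay 1.13 further below on the log2 scale than its cluster, the early-falling one on chromosome 6. Every treated library was below DMSO and the 24 h libraries were the lowest.

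The others that fell, beside those already described on chromosomes 9, 1 and 17, were chr15:58767316-58767716, chr12:58427906-58428306 and chr17:79273431-79273831. The one on chromosome 15 went from 30.7 and 36.4 CPM with DMSO to 15.5 and 12.7 CPM at 24 h (log2 change -1.24, edgeR adjusted p = 2.13e-10). The one on chromosome 12 went from 45.3 and 52.8 CPM to 26.5 and 22.7 CPM (-0.99, adjusted p = 3.74e-10). The one on chromosome 17 went from 76.9 and 81.5 CPM to 57.6 and 49.1 CPM (-0.56, adjusted p = 4.15e-06). The sums of the clusters holding the last pair had log2 changes of -0.053 and 0.020 and were not called (edgeR adjusted p 0.886 and 0.835).

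The 3 peaks that rose were chr12:58129018-58129418, chr17:27467693-27468093 and chr6:33729508-33729908. The first lies in the strongest cluster and held 174 and 180 CPM with DMSO, 220 and 213 CPM at 2 h, 243 and 227 CPM at 4 h, and 274 and 261 CPM at 24 h. Every treated library lay above DMSO and the 24 h libraries were the highest, with a log2 change of 0.60 ± 0.06 (SE; edgeR adjusted p = 5.84e-14) in a cluster whose sum was not called.

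The peak on chromosome 17 opens the 8-peak cluster chr17:27467693-27507340. It held 22.5 and 20.2 CPM with DMSO, 27 and 32.4 CPM at 2 h, 28.1 and 30.8 CPM at 4 h, and 39.8 and 38.7 CPM at 24 h, a log2 change of 0.88 ± 0.14 (SE; edgeR adjusted p = 5.29e-07) against -0.064 for the sum. The peak on chromosome 6 held 17.9 and 17.9 CPM with DMSO, 19.8 and 23.7 CPM at 2 h, 20.5 and 24.8 CPM at 4 h, and 36.3 and 29.6 CPM at 24 h, a change of 0.89 ± 0.15 (adjusted p = 5.03e-06) against -0.040 for the sum of chr6:33712951-33776184. In both the treated libraries lay above DMSO and the 24 h libraries stood highest.

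The strongest peak of a cluster was more often lower than higher at 24 h. Of the 230 strongest peaks, 28 (12.2%) were called lower and 5 (2.17%) higher, with a median log2 change of -0.044. Among the peaks next in strength, ranks 2 to 4, 53 (7.68%) of 690 were lower and 56 (8.12%) higher, and among the 1476 remaining peaks 73 (4.95%) and 112 (7.59%), with medians of -0.012 and 0.055. All 28 lower ones were among the 214 strongest peaks in the strongest level class of the table (30.4 CPM and above), where they made up 13.1%, against 1.87% higher. In that class 5.99% of the 718 other members were lower and 9.19% higher, and 4.81% and 1.93% of the peaks outside the clusters, so lower calls outnumbered higher ones outside too. The medians of mean signal were 69.2, 44.5 and 50.3 CPM in these 3 sets, which are therefore not equal in level within the class. Over the whole table the median log2 change also went from 0.079 in the weakest level class to -0.033 in the strongest. With offsets that follow abundance, 10.4% of the strongest peaks were lower and 5.22% higher, and the part that level plays was not tested further. The shares lower were 7.83%, 8.26%, 7.39% and 9.13% when DMSO A, then DMSO B, then 24 h A, then 24 h B was left out, and the shares higher 0.87%, 0.87%, 1.3% and 0.87%. Peaks at either end of a cluster were called lower in 5.45% and higher in 6.32% of 459 cases, and inner peaks in 6.66% and 7.43% of 1937.

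The log2 changes of neighbouring peaks were more alike the closer the peaks lay. At 24 h the Pearson correlation between the log2 changes of adjacent peaks was 0.661 over 492 pairs under 1000 bases apart, 0.423 over 575 pairs from 1000 to under 5000 bases apart, and 0.254 over 1092 pairs further apart. The median absolute difference within a pair was 0.164, 0.196 and 0.247 on the log2 scale in the same order. The median signal of a pair was 28.4, 27.9 and 24.1 CPM, so the pairs furthest apart were also the weakest, and the part that level plays was not tested. The correlations were 0.489, 0.375 and 0.201 at 2 h and 0.507, 0.388 and 0.197 at 4 h. All pairs come from the same libraries, and a peak can enter 2 pairs, so these values are descriptions without a test. Whether windows under 1000 bases apart are separate elements was not tested either.

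**Figure D5:**
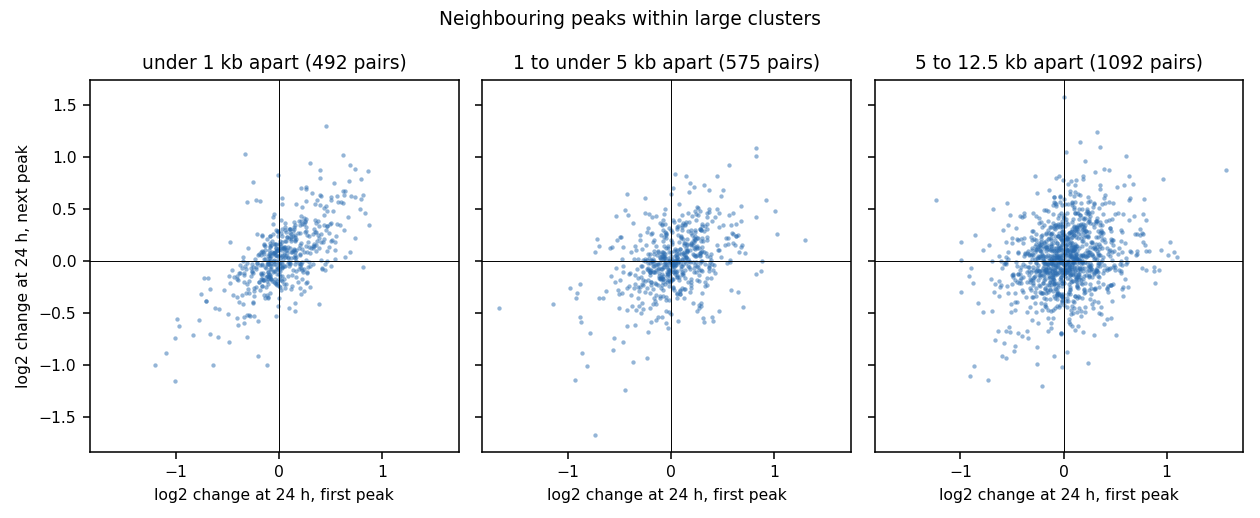
Each point is a pair of adjacent peaks within a cluster, with the log2 change against DMSO at 24 h of the first peak on the x axis and of the next peak on the y axis, in 3 panels by the gap between them. The cloud follows the diagonal under 1 kb (r = 0.661, 492 pairs) and is rounder at gaps of 5 kb and more (r = 0.254, 1092 pairs).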

How the data were processed

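H3K27ac was measured by chromatin immunoprecipitation and sequencing in 8 libraries, 2 in each of 4 groups; 2 input libraries were not analysed here. The authors deposited 1 table of raw read counts per peak window, per the file headers, with 3540104 to 5001652 counts per library. Per the submitters' processing notes, which state no roles, the genome builds were hg19 and dm3 and the tools Trimmomatic 0.32, Bowtie2, MACS2, DiffBind and DESeq2. The sources used here do not say whether peaks were called on pooled libraries, duplicates removed or a spike-in added. Positions are those of the table, taken as hg19, and could be shifted by 1 base because its counting from 0 or 1 is not given. The rows carry no gene names, and no genes were assigned.

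Rows (41791 tested, 276 not) and counts summed per stitched group (26144 tested, 170 not) went into edgeR 4.0.16 (R 4.3.3): filterByExpr (min.count 10, min.total.count 15), TMM scaling, and a robust quasi-likelihood fit of all 8 libraries, with Benjamini-Hochberg adjustment over the whole table and a threshold of 0.05. TMM assumes that most peaks do not change, so a shift shared by all peaks would not be seen. Unequal peaks, and single peaks against their cluster, were tested with diffSpliceDGE on the peak fit, which takes the peaks of a group as separate units. What edgeR names the biological coefficient of variation was 3.29% for peaks, and whether that spread is biological is not known. The prior degrees of freedom of the peak fit, the weight of the spread shared by all peaks, had a median of 182. The scripts were tested on simulated data. Python 3.11.15, pandas 2.3.3 and matplotlib 3.10.9 made the summaries and plots.

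Alternatives were DESeq2 1.42.0 (size factors or its Wald test), no filter, a fit of only the 2 groups compared, stitching at 10000 or 15000 bases, groups of 10 or more rows, Simes' method, and leaving out each library. Offsets that follow abundance (limma 3.58.1), a test against a 1.2-fold change and a block on the column letter were added after the data were seen.

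Clusters were named by rule: for each time the 5 lowest and 5 highest called changes of summed counts with both treated libraries on one side of DMSO, the 3 clusters with the most peaks, the 3 strongest, and the 5 with the lowest adjusted p for unequal peaks at each time. The members and lists were chosen with earlier results of these data known.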

Additional observations from a re-analysis of the deposited data

Results flagged for a closer look

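For 10 of the clusters named, the change at 24 h differed from that at 2 h in edgeR's test of 24 h against 2 h on summed counts. The difference itself does not contain the DMSO libraries, but they enter its p-value through the scaling and the estimate of spread. The log2 difference was negative in 6: -0.384 at chr14:75039684-75072628 (edgeR adjusted p = 3.12e-07), -0.236 at chr9:133296688-133355671 (adjusted p = 1.25e-05), -0.253 at chr3:57154287-57204382 (adjusted p = 0.00817), -0.201 at chr16:85470123-85514463 (adjusted p = 0.0208), -0.161 at chr17:80817755-80857177 (adjusted p = 0.0251) and -0.158 at chr1:31313566-31404094 (adjusted p = 0.0185). It was positive in 4: 0.364 at chr20:19569778-19607680 (edgeR adjusted p = 0.000103), 0.288 at chr1:205196985-205229088 (adjusted p = 0.000852), 0.213 at chr16:33922516-33966267 (adjusted p = 0.0452) and 0.175 at chr2:241144212-241198475 (adjusted p = 0.03).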

How the results depend on the processing

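No called change of a single named cluster or peak changed sign under the alternatives run, but the balance of lower and higher shares did change. At 24 h, where higher calls were the more frequent, member peaks had more lower ones with DESeq2's Wald test, against a 1.2-fold change (2.42% and 2.38%), without DMSO B (3.74% and 3.7%) and without 24 h B (4.0% and 3.88%), and equal shares without DMSO A (3.5%). Clusters at 24 h had more lower ones with the Wald test, without 24 h A (13.0% and 11.7%) and at 10000 bases (18.8% and 16.2%), and equal shares of 11.7% without DMSO A or 24 h B. At 2 h clusters turned with 10 or more rows (8.18% and 7.27%) and against a 1.2-fold change, and were equal with the Wald test and with abundance offsets (6.09%). At 4 h they turned against a 1.2-fold change and were equal with the Wald test and with 10 or more rows (9.09%). For 24 h against 2 h they were equal against a 1.2-fold change and with abundance offsets. DESeq2 size factors, no filter on low counts and stitching at 15000 bases kept every share of members called within 1.5 times. DESeq2's Wald test called fewer: peaks lower and higher were 0.166% and 0.0% at 2 h (60 higher at an unadjusted p under 0.05), 0.333% and 0.0416% at 4 h, and 1.33% and 1.08% at 24 h. Its clusters were 1.3% and 1.3%, 1.74% and 1.74%, and 6.52% and 6.09%, with 2.61% and 0.435% for 24 h against 2 h, and it gave 3.48% and 0.0% of strongest peaks (6 higher unadjusted) and 0.435% of clusters with both directions. Against a 1.2-fold change (edgeR glmTreat), peaks were 0.292% and 0.0% (64 higher unadjusted), 0.793% and 0.0% (82 unadjusted), and 2.42% and 2.38%. Clusters were 0.435% and 0.0% (2 unadjusted), 0.87% and 0.0% (4 unadjusted), 1.74% and 2.61%, and 0.0% and 0.0% for 24 h against 2 h (3 and 1 unadjusted), with 3.48% and 0.0% of strongest peaks (1 higher unadjusted) and 0.87% with both directions. Groups of 10 or more rows gave 8.18% of clusters lower at 2 h, 14.5% unequal at 4 h and 0.289% of peaks apart at 2 h. Stitching at 10000 bases gave 12% of clusters higher at 2 h, 2.56% higher for 24 h against 2 h and 0.259% of peaks apart at 2 h. Simes' method gave 1.3%, 3.48% and 21.7% unequal clusters. Offsets that follow abundance gave 10.9% higher for 24 h against 2 h and 5.22% of strongest peaks higher, which the fit of 2 groups put at 3.48%. Leaving out 1 library at a time gave 0.333% to 1.41% of peaks lower and 0.0417% to 0.541% higher at 2 h, 1.04% to 1.71% and 0.416% to 0.582% at 4 h, and 3.5% to 4.08% and 3.5% to 4.17% at 24 h. Clusters went from 2.17% to 3.04% and 2.61% to 6.52% at 2 h, 2.61% to 4.35% and 5.65% to 7.83% at 4 h, 11.3% to 13.0% and 11.7% to 13.5% at 24 h, and 6.09% to 12.2% and 2.61% to 3.91% for 24 h against 2 h. Unequal clusters went from 0.435% to 4.35%, 2.17% to 4.35% and 17.0% to 23.9%, peaks apart from 0.0% to 0.0834%, 0.0417% to 0.166% and 1.21% to 1.88%, strongest peaks from 7.39% to 9.13% lower and 0.87% to 1.3% higher, and clusters with both directions from 3.04% to 3.48%. Such fits hold 7 libraries and assume that the lone library of a group varies like the others; beyond that, the cause was not tested. For single clusters and peaks, 3006 values kept their side of the threshold, 270 lost and 24 gained a call. The columns carry the letters A and B, which no label ties to a replicate number. A replicate block on the letter, added after the data were seen, gave 6.64% of member peaks lower and 7.43% higher, 15.7% and 18.3% of clusters and 44.3% unequal clusters at 24 h, and kept every other share within 1.5 times too. Deviations of libraries of one letter from their group means had correlations of -0.0332 to 0.0543 between groups (41791 peaks), and not every library was nearest to its own letter. No deviation shared by a letter was thus seen, but these values cannot show whether libraries of one letter were handled together.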
